A study of Drosophila melanogaster with 39 samples.

Results

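The cytosolic ribosome of Drosophila is built from about as many proteins as the ribosomes of other animals, and nearly every one of them is encoded by a gene whose symbol begins RpL (large subunit) or RpS (small subunit). Ribosomal proteins are needed in nearly equal amounts, so their genes are usually transcribed at high levels and move together. Heterozygous loss of many of them gives the Minute phenotype of slow growth and short bristles, and growing imaginal discs, the larval epithelia from which adult legs and wings form, use ribosomes heavily. The members described here are the probes of genes named RpL or RpS, together with the stalk genes RpLP0, RpLP1 and RpLP2 and the gene sta, which encodes the small subunit protein known as RpSA in other animals. Genes of the mitochondrial ribosome (mRpL and mRpS) were left out. Probes were matched by the CG number in the probe name, with the letter that marks a second probe of a gene ignored. The arrays held 130 member probes of 91 genes, out of 16358 gene probes, of which 15397 could be named and stood for 11454 genes. Of the 91 genes, 38 belonged to the small subunit, 47 to the large subunit body and 3 to the stalk. The other 3, RpL7-like, RpL24-like and RpLP0-like, resemble ribosomal proteins but their yeast counterparts are factors that help assemble the large subunit.

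The 39 arrays were 2-colour cDNA arrays on which RNA of 2 samples, amplified through 2 rounds of in vitro transcription, was compared. Leg discs that express the signalling protein Wingless throughout can turn part of their dorsal tissue into wing tissue, a switch called transdetermination, and the series compared such discs with leg discs, wing discs and regenerating leg discs. Ectopic Wingless (Wg) was driven in larvae of the genotype y,w,hs-flp with vgBE-GAL4/UASGFP and an Actinc5, FRT y+, FRT, wg+ transgene by heat shocks 60 h and 72 h after egg deposition. Their first leg discs were taken 3 days later and compared with the pool described below (6 arrays), and the ectopic protein delays metamorphosis. From such discs the transdetermining cells (TD cells), marked by GFP under the vgBE enhancer, were cut out by hand and compared with the remaining dorsal cells of the same kind of disc, D(wg), on 3 arrays, and with the ventral cells, V(wg), on 5 arrays. D(wg) was compared with V(wg) on 3 arrays, and the fragments of these comparisons were pooled from 4 to 8 discs. TD cells were also set against dorsal cells of wild-type leg discs, D(wt), on 2 arrays, and D(wt) against wild-type ventral cells, V(wt), on 3 arrays. Regenerating fragments were pieces cut from discs of the second leg and kept for 3 to 5 days in the abdomens of adult females, and were compared with the pool on 4 arrays. First leg discs of single male wild-type OregonR larvae at the wandering stage were compared with the same pool on 4 arrays, and 9 arrays compared wing discs with leg discs dissected from the same animal, with 3 arrays per thoracic segment of leg. The pool was amplified RNA of the leg discs of every segment, from male and female wild-type larvae in equal shares. The fly stock, the transgenes and the heat shock all differ together between Wg discs and the wild-type pool, so they cannot be told apart there. Nothing in the labels says whether the arrays of a comparison came from separate amplifications in every case; where they did not, the p-values measure only the spread between arrays.

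Every value is a log2 ratio, the first-named sample over the second-named one, relative to the median gene of its array, so a value of 1 is a ratio 2-fold that of the typical gene. The values hold no signal level, and in such ratios fewer cells of a type and less RNA per cell cannot be told apart. A gene was called higher or lower at an adjusted p below 0.05 from limma's moderated test on all 39 arrays, with Benjamini-Hochberg adjustment over all probes tested in a comparison. The standard error (SE) of a probe rests on a spread pooled over all 39 arrays. It can therefore understate the scatter within a comparison whose own arrays vary more. Arrays held a value for 18.15% to 89.54% of gene probes, but for 75 to 91 of the 91 member genes. Values were present on at least 35 arrays for 82 members (90.1%), against 34.3% of all named genes. Wing disc markers checked the wing discs: 4 of 5 measured were higher in wing than in leg discs, and 4 of 5 leg disc markers were lower.

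The arrays labelled TD against D(wt) went against their label. The genes that show this were chosen after their values were seen. Ilp8, a hormone that damaged or overgrowing discs release, was 4.95 to 6.22 on the 6 arrays of Wg discs over the pool and 1.96 to 4.62 in TD cells over D(wg), yet it was -7.08 and -6.28 on the arrays labelled TD over D(wt). The pigment gene w was 4.43 to 6.75 in Wg discs over the pool and -6.90 and -6.58 on these 2 arrays. Over the probes of all other genes, the correlation of these 2 arrays with each of the 6 Wg arrays lay between -0.48 and -0.30 in 12 pairs, and the correlation of the 2 with each other was 0.75. The direction of these 2 arrays is therefore not settled, and results that use them are given both as labelled and with the sign turned.

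Most ribosomal protein genes followed their common median from array to array, but the members of 1 array were spread as widely as that median ranged. The members' median had a pooled SD of 0.35 between arrays of 1 comparison, while the SD between members on 1 array was 0.39 in the median array (0.18 to 0.95). The correlation of a member's values with the median of the other members, over the arrays where both were measured, had a median of 0.76 over 89 genes, and it exceeded 0.7 for 60 of them. It was under 0.3 for 9 genes. Of these, 3 were measured on few arrays, RpL22-like (-0.14, 14 arrays), the small subunit gene RpS19b (0.07, 15 arrays) and RpL37-2 (0.25, 13 arrays). The other 6, on 36 to 39 arrays each, were RpL5 (0.07), RpLP0-like (0.08), RpL7A (0.10), RpL3 (0.12), RpL34a (0.20) and RpLP0 (0.24). These correlations are descriptions across arrays that share samples, dyes and slides. Where a gene had several probes, they mostly gave the same picture. The correlation over arrays had a median of 0.91 in 49 probe pairs of 23 genes and was under 0.5 in 5 pairs. In RpS14a, the standing probe CG1524f had correlations of -0.126 with CG1524b and -0.345 with CG1524g. In RpL28, CG12740c had correlations of 0.214 with the standing probe CG12740a and 0.139 with CG12740b. RpL3 was mixed too. Its standing probe CG4863h had correlations of 0.655, 0.667 and 0.234 with CG4863f, CG4863g and CG4863i. In TD cells over V(wg) it was at -0.17, while they were at 0.51, 0.56 and 0.41, none of them called.

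**Figure D1:**
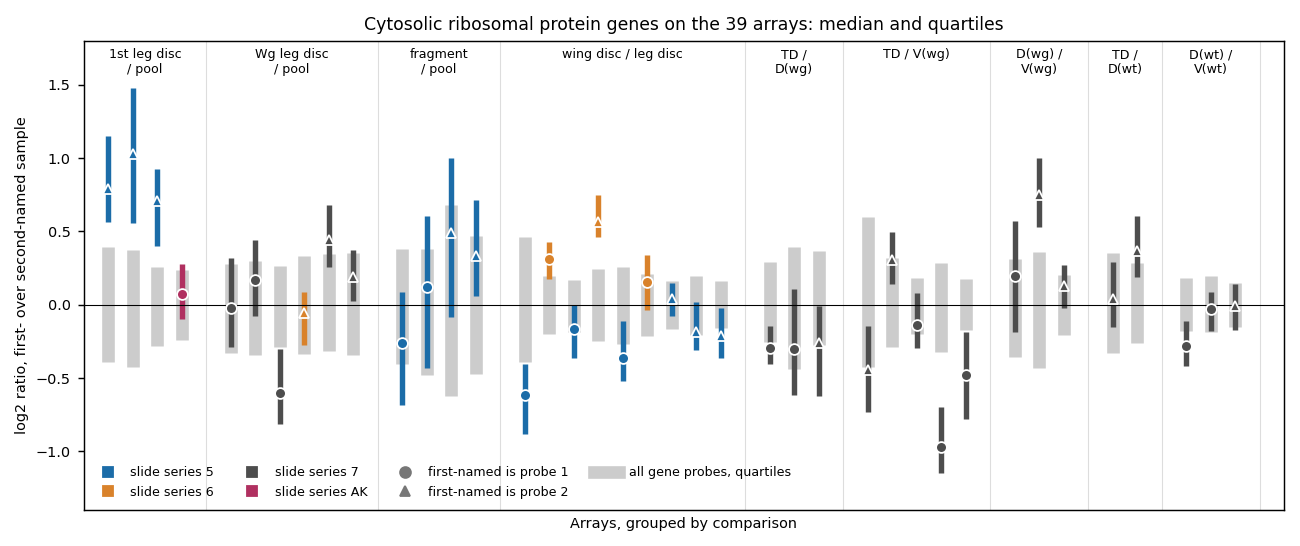
Median log2 ratio of the ribosomal protein genes on each of the 39 arrays (points) with the quartiles of the members, grouped by comparison, with the quartiles of all gene probes as grey bars. Colours mark the slide series read from the slide number, circles the arrays on which the first-named sample was probe 1 and triangles those on which it was probe 2. The 3 first leg disc arrays of slide series 5 lie highest, between 0.71 and 1.03, while the AK slide lies at 0.07.

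First leg discs of single wild-type males had higher ribosomal protein mRNA ratios than the pool of all leg discs. Of 83 members tested, 43 were called higher and 0 lower, and 80 had a fitted ratio above 0. The median member was 0.58, against -0.02 for all genes, of which 8.02% were called higher and 10.1% lower. The small subunit had 21 of 35 called (median 0.64), the large subunit body 20 of 42 (median 0.57) and the stalk 1 of 3. The pool holds female discs, and X-linked members had 8 of 15 called higher (median 0.48) beside 35 of 68 for the other members (median 0.58).

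RpS9 (probe CG3395b, chromosome 3L), a small subunit protein near the mRNA entry site, was 1.26, 1.80, 1.95 and 1.02 on the 4 arrays of first leg discs over the pool. All 4 were above 1, and the fitted ratio was 1.43 (SE 0.22, limma adjusted p = 0.000185). RpS27 (CG10423, 3R), a zinc-binding small subunit protein, was 1.41, 1.66, 1.26 and 0.92 (fitted 1.32, SE 0.24, limma adjusted p = 0.00104). Both genes were lowest on the fourth array, the one on the AK slide, as were most members.

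RpL36A (CG7424, 2L), which lies near the site where spent tRNA leaves the ribosome, was 1.86, 2.06 and 1.50 on arrays 1 to 3 (series 5) and 0.26 on the AK slide (fitted 1.33, SE 0.27, limma adjusted p = 0.00238). RpL40 (CG2960, 2L), made as a fusion with ubiquitin, was 1.85, 2.00, 1.45 and 0.42 (fitted 1.31, SE 0.26, limma adjusted p = 0.00197). Both were high on the first 3 arrays and low on the fourth. RpS12 (CG11271, 3L), which in Drosophila is needed for cells short of ribosomal proteins to be eliminated by their neighbours, was 2.38, 1.63 and 1.42 on series 5 and 0.01 on the AK slide (fitted 1.28, SE 0.24, limma adjusted p = 0.00148). RpL32, in wide use as a reference transcript under its older name rp49, was 1.44, 2.59, 0.82 and 0.14, with a fitted ratio of 1.11 (SE 0.33, limma adjusted p = 0.0223). A transcript often taken as constant was thus among the 8 highest called members here. The second ubiquitin fusion, RpS27A, was 0.95, 1.52, 0.75 and 1.03 (fitted 1.07, SE 0.34, limma adjusted p = 0.0288).

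Members with special roles were spread over this range. RpLP1, an acidic stalk protein that recruits elongation factors, was called higher (0.81, limma adjusted p = 0.00519), while its partner RpLP2 (0.40, adjusted p = 0.202) and the stalk base RpLP0 (0.19, adjusted p = 0.606) were not. RpL11, which with RpL5 and 5S rRNA forms a particle that in mammals binds the p53 regulator Mdm2, was called higher (0.65, limma adjusted p = 0.0416), whereas RpL5 was 0.10 (adjusted p = 0.754). RpS6, the substrate of S6 kinase in the TOR pathway, was 0.27 (adjusted p = 0.334), and sta was 0.27 (adjusted p = 0.363). Of the assembly factor homologues, RpL24-like was called higher (1.37 from 3 arrays, limma adjusted p = 0.000275), and RpLP0-like (0.37, adjusted p = 0.0796) and RpL7-like (-0.09, adjusted p = 0.803) were not. RpL24-like had no value on the AK slide and was 1.49 to 1.76 on the 3 slides of series 5. First leg discs were probe 2 on all 3, so the dye term in its fitted ratio came from other comparisons. The lowest members were RpL7A at -0.46 (adjusted p = 0.358) and RpL3, which reaches towards the peptidyl transferase centre, at -0.30 (adjusted p = 0.252).

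**Figure D2:**
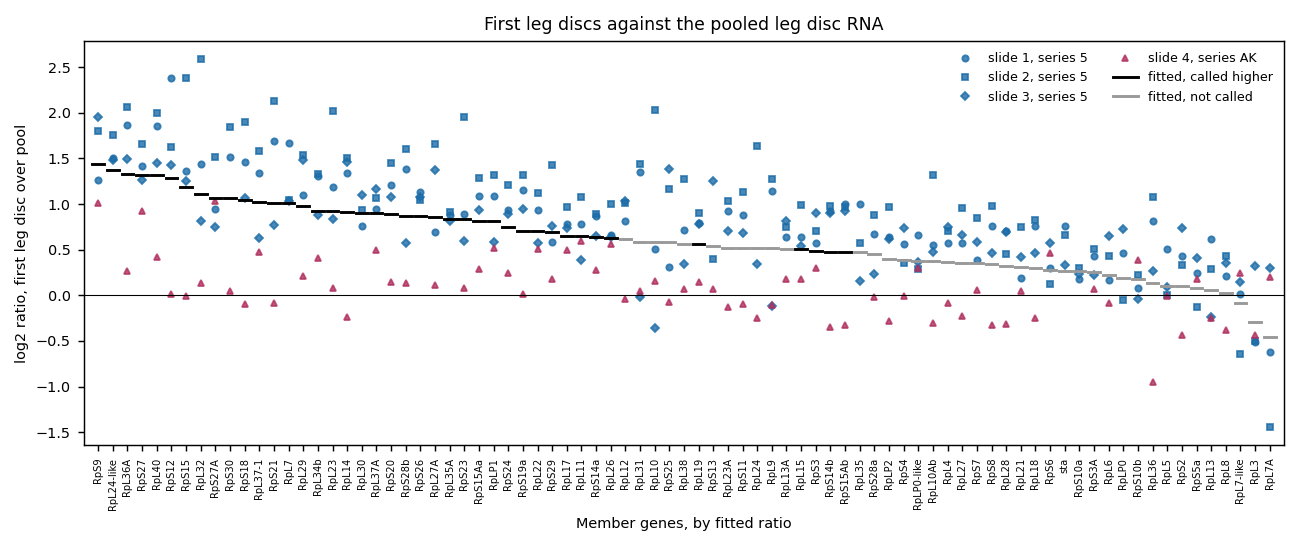
Log2 ratio of first leg discs over the pool for the members shown, sorted by its fitted value, with the 3 arrays of slide series 5 in blue and the AK slide as magenta triangles. Bars mark the fitted value, black where called higher and grey where not called, and most triangles lie below the blue points of the same gene.

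The members' medians on the 4 arrays were 0.79, 1.03, 0.71 and 0.07. The array at 0.07 was the only slide of series AK and the only one with the first leg discs as probe 1, so slide series and dye orientation cannot be told apart there. Over all arrays the dye term of the fit was below 0 for 81 of 89 members, with a median of -0.16, against -0.01 for all genes. A fit without the AK slide, which kept the 3 slides of series 5 here and every array of the other comparisons, also called 43 members higher. Leaving out array 1 left 11 called and leaving out array 2 left 10, and scaling all arrays to 1 spread left 28. The share of all genes called in these fits is not given. Fat body markers moved with this comparison: 4 of 5 measured were called lower in first leg discs, with a median of -2.90, and on the 4 arrays their medians were -3.10, -2.32, -3.45 and -2.61. Muscle markers had 3 of 6 called lower with a median of -0.67. The part of either tissue in the members' ratios was not tested.

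Genes that act with the ribosome had medians closer to 0 or below it. Elongation factors had 1 called higher and 1 lower of 9, with a median of -0.02. Translation initiation factors had 5 called higher and 2 lower of 26, with a median of 0.00. Ribosome biogenesis genes, which make and process rRNA, had 1 called higher and 4 lower of 24 with a median of -0.27, and Nop56, a core protein of the particles that methylate rRNA, was at -1.49 (limma adjusted p = 0.00684). Mitochondrial ribosomal protein genes had 7 called higher and 3 lower of 58, with a median of 0.19.

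Leg discs with ectopic Wg, compared with the same pool, showed no shared shift of the ribosomal protein genes. Of 89 members tested, 5 were called higher and 4 lower, 10.1% of members, against 22.4% of all genes (11.0% higher and 11.5% lower). Members had a median of 0.02. On the 6 arrays the members' medians were -0.02, 0.17, -0.60, -0.05, 0.44 and 0.19, on either side of 0. With the 5 slides of series 7 alone, 7 were called higher and 3 lower. A few genes nevertheless held a position of their own.

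RpL21 (CG12775, 2L), a large subunit protein, was 0.11 at its lowest, 1.06 in the median and 1.52 at its highest over the 6 arrays of Wg discs over the pool. All 6 values were above 0, and the fitted ratio was 0.92 (SE 0.17, limma adjusted p = 0.00031). RpL23 ran from 0.07 to 1.67 with a fitted ratio of 0.82 (SE 0.23, limma adjusted p = 0.0105), and RpS10b from -0.22 to 1.16 with a fitted ratio of 0.68 (SE 0.19, limma adjusted p = 0.0112). The other 2 called higher were assembly factor homologues. RpL24-like was 0.34 to 1.10 (fitted 0.67, SE 0.15, limma adjusted p = 0.00136), and RpLP0-like was 0.35 to 0.83 (fitted 0.59, SE 0.12, limma adjusted p = 0.000848); both were above 0 on all 6 arrays. RpL7-like, the remaining homologue, was 0.27 (adjusted p = 0.28).

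Of the members called lower in Wg discs, RpL3 had the largest fall, with a fitted ratio of -0.73 (SE 0.15, limma adjusted p = 0.000665). Its values were -0.96, 0.08, -1.14, -1.13, -0.52 and -0.68, below 0 on every array but the second. Its probes CG4863f (-0.64) and CG4863g (-0.75) were called lower too, but CG4863i was at 0.13 and not called. RpL13A, known in mammals for silencing inflammatory mRNAs when released from the ribosome, was at -0.64 (SE 0.17, limma adjusted p = 0.00793). The stalk base RpLP0 was -0.78, -0.18, -1.25, -0.93, 0.14 and -0.70, with a fitted ratio of -0.62 (SE 0.17, limma adjusted p = 0.00803). RpL35, beside the exit of the nascent chain tunnel, was at -0.53 (SE 0.19, limma adjusted p = 0.0454). The acidic stalk proteins were near 0, with RpLP1 at 0.06 and RpLP2 at 0.04, and so were RpL5 (-0.10), RpL11 (0.06) and RpS12 (-0.08), none of them called.

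Ribosome biogenesis genes had 6 called higher and 4 lower of 27 in Wg discs over the pool (median 0.07), and subunits of RNA polymerase I, which transcribes rRNA, 2 higher and 0 lower of 7 (median 0.36). Mitochondrial ribosomal protein genes had 15 called higher and 3 lower of 63 (median 0.14). Myc, the growth regulator that drives ribosome production in discs, was called lower at -1.56 (limma adjusted p = 8.31e-06).

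The difference between the Wg discs and the first leg discs, both measured against the pool, was -0.59 for the median member, with 0 called higher and 15 lower of 83, or 18.1%, against 7.11% of all genes (3.69% higher and 3.43% lower). The median of all genes was 0.02. RpS12 gave -1.36 (limma adjusted p = 0.00793), RpS27 -1.17 (adjusted p = 0.0187), RpL13A -1.15 (adjusted p = 0.0102), RpL40 -1.13 (adjusted p = 0.0366) and RpL22, a large subunit protein with a long N-terminal extension in flies, -0.92 (adjusted p = 0.0035). RpL22 lay between -0.70 and 0.30 on the Wg arrays and between 0.50 and 1.12 on the first leg arrays, so the groups did not overlap. RpL13A ran from -1.37 to 0.00 on the Wg arrays and from 0.17 to 0.82 on the first leg arrays, again with no overlap. For RpS12 and RpL40 the groups did overlap. The highest Wg values were 0.36 and 0.74, and the lowest first leg values 0.01 and 0.42. Fat body markers ran the other way, with 3 of 5 called higher in Wg discs (median 2.96), and their part was not tested. The count of 15 moved between 2 and 21 when 1 array was left out. It was 2, 4 and 9 without first leg array 1, 2 or 3, and 5, 5 and 8 without Wg array 3, 4 or 6. Both groups were measured against 1 pool, and sex, stock and heat shock differ between them.

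Regenerating fragments had ribosomal protein genes called in both directions against the pool, at a share below that of all genes. Of 83 members tested, 15 were called higher (18.1%) and 11 lower (13.3%), 31.3% in all, against 41.8% of all genes (15.9% higher and 25.9% lower). Their median was 0.20. On the 4 arrays the members' medians were -0.26, 0.12, 0.49 and 0.33, and the first-named sample was probe 1 on the lower pair and probe 2 on the higher pair, all on slides of series 5. The small subunit had 5 higher and 3 lower of 34, and the large subunit body 9 higher and 6 lower of 43. The split moved with the processing, to 10 higher and 14 lower with the deposited values left uncentred and to 0 higher and 5 lower with all arrays scaled to 1 spread. It was 9 and 7 without array 2, 6 and 9 without array 3, and 8 and 11 without array 4.

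RpLP0 (CG7490, 3L), which anchors the stalk on the large subunit, was -1.54, -1.47, -2.11 and -0.45 on the 4 arrays of fragments over the pool. All 4 values were below 0, and the fitted ratio was -1.39 (SE 0.20, limma adjusted p = 4.19e-06). The other stalk proteins did not follow it, since RpLP1 was at -0.03 and RpLP2 at -0.15, neither of them called. RpL3 (CG4863h, 3R) was -1.13, -0.89, -1.30 and -1.21, the tightest spread among the strongly lower members, with a fitted ratio of -1.13 (SE 0.18, limma adjusted p = 1.33e-05). RpL5 (CG17489, 2L) was -1.43, -0.43, -1.56 and -0.56 (fitted -0.99, SE 0.20, limma adjusted p = 0.00028). Its partner RpL11 was 0.47 (adjusted p = 0.0833), and the difference between the 2 partners was not tested. RpLP0-like (CG1381, 2R), whose yeast counterpart holds the place of the stalk base in immature particles, was -1.0, -0.63 and -1.20 on the 3 arrays that measured it (fitted -0.96, SE 0.17, limma adjusted p = 6.52e-05).

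RpL7A, a large subunit protein whose gene is X-linked, was -3.72, -0.60, -1.87 and 0.46, with a fitted ratio of -1.43 (SE 0.34, limma adjusted p = 0.00139). Its 4 values spread more than those of any gene just named and did not share a sign. The other members called lower ranged from -0.63 for RpL13A to -0.41 for RpL19, and RpS4 (-0.60, limma adjusted p = 0.00406), RpS2 (-0.51, limma adjusted p = 0.0223) and RpL4 (-0.45, limma adjusted p = 0.0437) were below 0 on all 4 arrays. RpS4 and RpS2 belong to the small subunit, where RpS2 sits at the channel through which mRNA enters.

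Among the members called higher, RpL29 (CG10071, 2R), a short protein of the large subunit, was 0.66, 0.64, 1.84 and 1.92 (fitted 1.27, SE 0.29, limma adjusted p = 0.00109). The 2 arrays with the fragments as probe 2 gave the higher values. RpS16 was 0.37, 0.50, 2.47 and 0.35 (fitted 0.93, SE 0.26, limma adjusted p = 0.00685), so array 3 stood far above the other 3. RpL24 was 0.09, 1.33, 1.45 and 0.77 (fitted 0.91, SE 0.23, limma adjusted p = 0.00382). RpL36A, also high in first leg discs over the pool, was 0.66, 0.73, 1.56 and 0.48 (fitted 0.86, SE 0.27, limma adjusted p = 0.0115). RpL21, called higher in Wg discs too, was 0.03, 1.23, 0.86 and 1.07 (fitted 0.80, SE 0.21, limma adjusted p = 0.00355). RpS9 was -0.23, 1.12, 1.04 and 1.40 (fitted 0.83, SE 0.22, limma adjusted p = 0.00302), above 0 on 3 of 4 arrays. RpL27A, RpL37-1, RpS23 and RpS15 were called with fitted ratios from 0.77 to 1.01. Wg discs, first leg discs and fragments share the pool, so their ratios are not independent of each other.

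**Figure D3:**
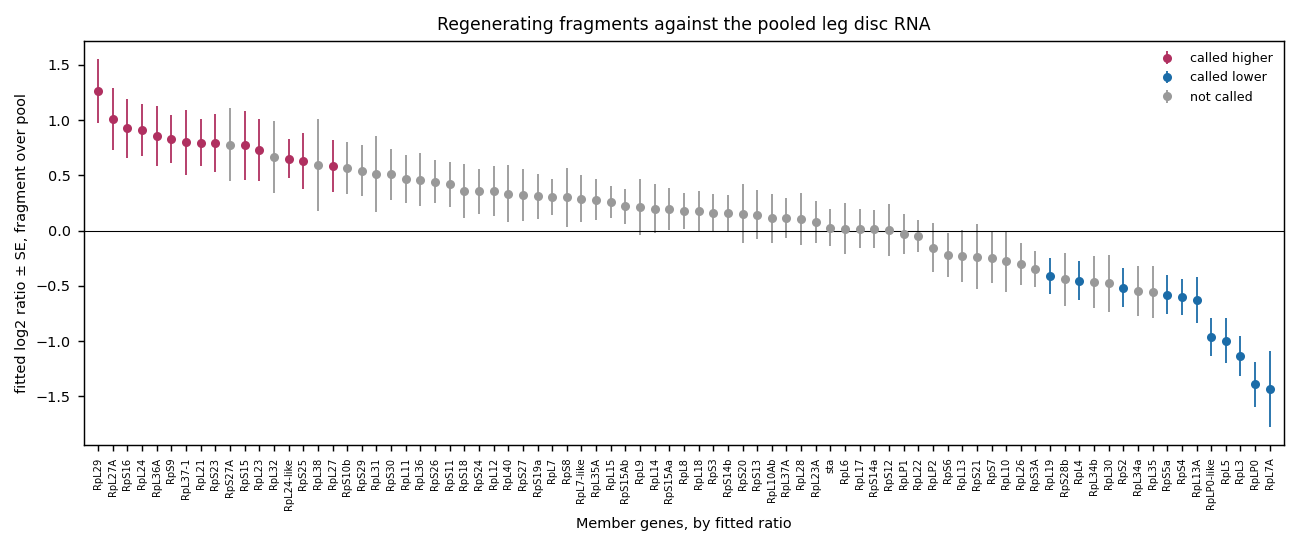
Fitted log2 ratio of regenerating fragments over the pool for the members shown, with bars of 1 SE, from RpL29 at the top of the scale (1.27) to RpL7A at the bottom (-1.43). Magenta marks genes called higher, blue genes called lower and grey the others.

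Ribosome biogenesis genes had 0 called higher and 9 lower of 14 measured in the fragments (median -0.88), with Fib, the rRNA methylase fibrillarin, at -1.39 (limma adjusted p = 2.48e-06), pit, a nucleolar helicase, at -1.67 (limma adjusted p = 2.75e-06) and Ns1, a nucleostemin GTPase, at -1.42 (limma adjusted p = 0.0069). RNA polymerase I subunits had 0 called higher and 3 lower of 4 (median -0.66). Elongation factors had 0 higher and 4 lower of 8 (median -0.49) and initiation factors 0 higher and 9 lower of 24 (median -0.39). Mitochondrial ribosomal protein genes had 4 higher and 10 lower of 47 (median -0.01). Dref, a transcription factor of growth genes, was at -1.17 (limma adjusted p = 8.51e-06). These arrays held values for 24.91%, 61.52%, 29.71% and 18.15% of gene probes. Blood cell markers had medians of 1.96, 2.17, 0.12 and 1.37 on the 4 arrays, and their part was not tested.

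Set against the first leg discs through the pool, the fragments had 0 members called higher and 20 lower of 81, or 24.7%, against 20.8% of all genes (6.06% higher and 14.7% lower). The median member was -0.47 and the median gene -0.20. RpLP0 gave -1.58 (limma adjusted p = 0.000944), RpLP0-like -1.34 (adjusted p = 0.000172), RpL34b -1.39 (adjusted p = 0.00466), RpS28b -1.31 (adjusted p = 0.0074) and RpL5 -1.10 (adjusted p = 0.00794). RpL34b lay below its first leg values of 0.41 to 1.33 on every fragment array. The second leg gave the fragments and the first leg the discs, so segment, sex and culture cannot be told apart in this difference. Leaving out 1 array moved the count between 12 and 22, with 13 left without first leg array 1, 13 without fragment array 1 and 12 without fragment array 3.

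Set against the fragments, also through the pool, the Wg discs had 4 members called higher and 2 lower of 83, 7.23% of them, against 27.9% of all genes. The 4 higher were RpLP0-like at 1.55 (limma adjusted p = 4.85e-06), RpL5 at 0.89 (adjusted p = 0.0118), RpLP0 at 0.78 (adjusted p = 0.027) and RpS4 at 0.59 (adjusted p = 0.0367). The 2 lower were RpL29 at -1.29 (adjusted p = 0.0147) and RpL27A at -1.11 (adjusted p = 0.0236). Ribosome biogenesis genes had 10 called higher and 0 lower of 14 in the same difference. Members had a median of -0.10 in it. The split was 3 higher and 4 lower without fragment array 1, and 1 higher and 0 lower without fragment array 3.

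TD cells carried no called change of ribosomal protein genes against their dorsal neighbours. Of 86 members tested in TD cells over D(wg), limma called 0 higher and 0 lower, while 18.6% of all genes were called. At an unadjusted p below 0.05 there were 5 higher and 12 lower. The median member was -0.27, with 20 fitted ratios above 0, and the members' medians on the 3 arrays were -0.30, -0.30 and -0.26. The small subunit had a median of -0.36 and the large subunit body -0.19.

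The members farthest above were RpL34a at 0.38, 0.98 and 0.43 (fitted 0.62, SE 0.23, limma adjusted p = 0.0553), RpLP0-like at 0.47, 0.34 and 0.51 (fitted 0.46, SE 0.17, limma adjusted p = 0.0596) and, measured on only 2 of the 3 arrays, RpL22-like at 1.08 and 0.23 (fitted 0.66, limma adjusted p = 0.0893). RpL22-like is the paralog of RpL22 best known from the fly testis. Farthest below were RpL37-1 at -0.53, -0.56 and -1.46 (fitted -0.86, SE 0.34, limma adjusted p = 0.0779), RpS27A at -0.39, -1.16 and -0.98 (fitted -0.85, SE 0.38, limma adjusted p = 0.12) and RpS29 at -0.59, -0.98 and -0.78 (fitted -0.75, SE 0.27, limma adjusted p = 0.0502). Each of these kept 1 sign on the arrays that measured it, yet none passed the threshold. RpL3 is uncertain here, since the probe that stands for it was at 0.13 (adjusted p = 0.711) while its probe CG4863i, with values of 0.77 and 1.33 on 2 arrays, was called higher at 1.05 (SE 0.27, limma adjusted p = 0.0159).

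Of 27 ribosome biogenesis genes measured, 15 were called higher and 0 lower in TD cells over D(wg), where 10.8% of all genes were called higher, with a median of 0.65, and the list's medians on the 3 arrays were 0.63, 0.61 and 0.86. Ns1 was at 1.76 (limma adjusted p = 0.00479), Nop56 at 1.46 (limma adjusted p = 0.00476), pit at 1.28 (limma adjusted p = 0.00329) and nop5, the partner of Nop56, at 1.05 (limma adjusted p = 0.00592). M1BP, a factor that binds the promoters of many ribosomal protein genes, was at 0.94 (limma adjusted p = 0.00338). Initiation factors had 7 called higher and 1 lower of 26 (median 0.36), and mitochondrial ribosomal protein genes 3 higher and 1 lower of 64 (median 0.10). The biogenesis count fell to 2 without array 3 and to 9 and 14 without either of the others.

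Against ventral cells, 10 members were called lower in TD cells and 0 higher, of 86 tested, while 6.98% of all genes were called lower and 13.9% called either way. The members' share was 11.6%. The median member was -0.33, with 8 fitted ratios above 0. The members' medians on the 5 arrays were -0.45, 0.31, -0.14, -0.97 and -0.48, so array 2 lay above 0 and array 4 far below. The 10 fitted ratios ran from -0.63 for RpL14 to -0.48 for RpL4.

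RpS3, a small subunit protein that has also been linked to DNA repair, was -0.37, -0.14, -0.09, -1.20 and -0.96 in TD cells over V(wg) (fitted -0.50, SE 0.15, limma adjusted p = 0.0258). RpL11 was -0.37, -0.27, -0.37, -1.21 and -0.84 (fitted -0.58, SE 0.20, limma adjusted p = 0.044). Both were below 0 on all 5 arrays and lowest on array 4, as were most members. The adjacent small subunit genes RpS14a and RpS14b gave -0.55 (limma adjusted p = 0.0171) and -0.56 (limma adjusted p = 0.0102). They encode the same protein, so their probes may share RNA, and the probes of RpS14a disagreed: with its probes averaged RpS14a was at 0.01 (adjusted p = 0.97). sta was -0.44, 0.42, -0.59, -1.27 and -0.94, with array 2 on the other side of 0 (fitted -0.50, SE 0.15, limma adjusted p = 0.0263). RpL24-like was at -0.55 (limma adjusted p = 0.0196). Without array 1 or array 4, 1 member was called higher and 0 lower, without array 5 there were 2 called lower, and with the arrays of the comparison fitted alone 0 were called. Members at the upper end were RpL34a at 0.30 (adjusted p = 0.293), RpS3A at 0.20 (adjusted p = 0.421) and RpS20 at 0.11, none of them called.

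Ribosome biogenesis genes had 8 called higher and 0 lower of 25 in TD cells over V(wg), with a median of 0.41 and list medians of 0.92, 0.80, 0.24, 0.15 and 0.24 on the 5 arrays. Ns1 was at 1.63 (limma adjusted p = 0.000885) and Nop56 at 1.28 (limma adjusted p = 0.00146). The list was highest on arrays 1 and 2. Mitochondrial ribosomal protein genes had 1 higher and 1 lower of 62 (median 0.07).

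**Figure D4:**
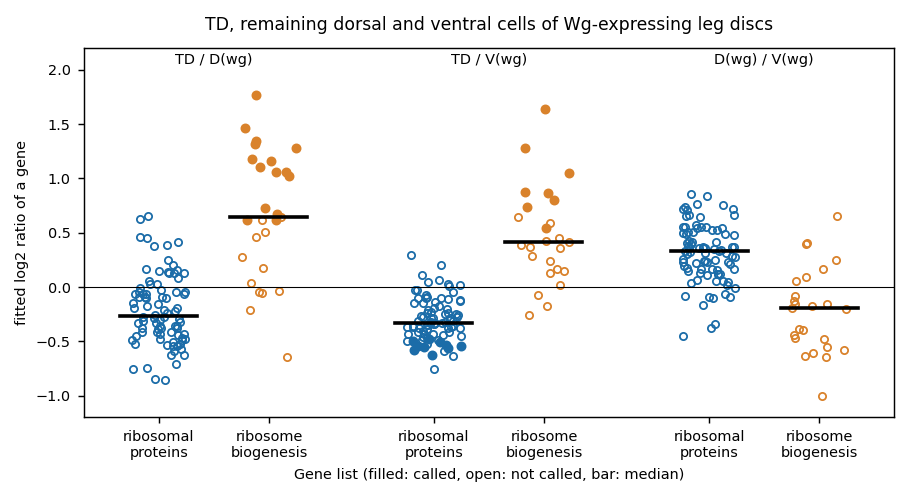
Fitted log2 ratios of the ribosomal protein genes and of the ribosome biogenesis genes in TD cells over D(wg), TD cells over V(wg) and D(wg) over V(wg). Filled points are called genes and bars mark the medians, which for the ribosomal protein genes are -0.27, -0.33 and 0.33 and for the biogenesis genes 0.65, 0.41 and -0.19.

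D(wg) cells over V(wg) cells gave 0 called of 87 members in limma's test, 13 higher and 1 lower at an unadjusted p below 0.05, and 0.302% of all genes called. The members' median was 0.33 and 77 fitted ratios were above 0. The members' medians on the 3 arrays were 0.20, 0.75 and 0.13. Array 2 also stood apart in Ilp8, at -1.65, against 3.92 and 7.15 on the others. RpS20 was 0.48, 2.17 and 0.10 (fitted 0.86, limma adjusted p = 0.143) and RpLP1 was 0.44, 1.12 and 0.50 (fitted 0.64, limma adjusted p = 0.123), and both were highest on array 2. RpL5 was -0.66, -0.66 and 0.05 (fitted -0.45, limma adjusted p = 0.267), the lowest member. Mitochondrial ribosomal protein genes were above 0 for 51 of 63 too, with a median of 0.26.

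The 3 comparisons among TD, D(wg) and V(wg) cells form a loop that must close if the ratios are exact: TD over D(wg) plus D(wg) over V(wg) should equal TD over V(wg). For the members the sum exceeded TD over V(wg) by 0.42 in the median and in 78 of 85 genes, against a median of -0.00 for all genes. In limma's test 0 of 85 members and 0 of 6345 genes were called in this difference. The gap of 0.42 was larger than the size of the members' median in any of the 3 comparisons.

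In wild-type discs, dorsal over ventral cells gave 0 called of 82 members in limma's test, 0 higher and 1 lower (RpL22) at an unadjusted p below 0.05, and 0.695% of all genes called. Members had a median of -0.03, and the arrays' medians were -0.28, -0.03 and -0.01. RpL22 was -0.57, -0.19 and -0.63 in D(wt) over V(wt), the lowest member (fitted -0.41, limma adjusted p = 1.0), and RpS13 was the highest at 0.18. The difference between the dorsal over ventral ratio in Wg discs and in wild-type discs was 0.36 for the median member and above 0 in 72 of 82, with 0 called in limma's test, 6 higher and 0 lower at an unadjusted p below 0.05, and 0.0879% of all genes called.

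On the 2 arrays labelled TD over D(wt), limma called 0 of 81 members as labelled, with 0 higher and 1 lower (RpLP0-like) at an unadjusted p below 0.05 and 9.52% of all genes called. The members' medians were 0.04 and 0.36, and the median fitted ratio was 0.06. The first-named sample was probe 2 on both arrays, so the dye term in these fitted ratios came from other comparisons. RpL37-1 was the highest at 0.25 and 1.32 (fitted 0.81, limma adjusted p = 0.247) and RpLP0-like the lowest at -0.33 and -0.72 (fitted -0.59, limma adjusted p = 0.0833). With the sign turned and the dye orientation kept, the median was -0.39, 77 members were below 0, and 2 were called lower, sta at -0.99 (limma adjusted p = 0.0119) and RpL4 at -0.81 (limma adjusted p = 0.05), with 8.05% of all genes called. With sign and dye orientation both turned, 0 were called and the median was -0.06. So neither the sign nor the size of the members' ratio is settled here.

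No ribosomal protein gene was called between wing discs and leg discs of the same larva. Of 82 members tested on 9 arrays, limma called 0, with 0 at an unadjusted p below 0.05, while 4.51% of all genes were called. The median member was -0.04. RpL36 and RpL7-like were highest at 0.23, and RpL29, measured on 6 of the 9 arrays, was lowest at -0.41 (SE 0.23, limma adjusted p = 0.58). The stalk base RpLP0 ran from -0.31 to 0.23 over the 9 arrays with a median of -0.03, and the fitted ratio was -0.01 (SE 0.13). Between leg segments, compared through the wing disc, 0 of 82 members were called in each of the 3 differences, and 0 at an unadjusted p below 0.05, with 0.0173%, 0.0% and 0.0% of all genes called.

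Beneath this, the wing and leg arrays split by slide series. The members' medians were 0.31, 0.56 and 0.16 for slide series 6 (3 arrays) and between -0.61 and 0.04 for slide series 5 (6 arrays). The mean of a member was above 0 on series 6 in 78 of 81 and below 0 on series 5 in 78 of 81. Of 79 members measured on all 9 arrays, 33 had every slide of series 6 above every slide of series 5, against 7.27% of all genes. With the slides of series 5 alone 0 members were called and the median was -0.25, and with series 6 alone, a split chosen after seeing the data, 1 was called and the median was 0.41. The sign of the members' median thus differed between slide series within 1 pair of tissues.

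Members were also described by their distance from the members' median on the same array, with no test. In the fragments over the pool, 12 of 79 members lay above the members' median on all 4 arrays and 12 below. RpL29 lay 1.09 above on average, while the mean distance of RpLP0 was -1.56 and that of RpL3 -1.30. RpLP0-like had -1.26 on the 3 arrays that measured it, and RpL7A had -1.60 but lay below the members' median on only 3 of 4 arrays. In TD cells over D(wg), 19 of 83 lay above on all 3 arrays and 20 below, with mean distances of 0.88 for RpL34a, 0.73 for RpLP0-like, 0.65 for RpL5, 0.65 for RpL6 and -0.56 for RpL37-1. RpL34a was above the members' median on all 5 arrays of TD cells over V(wg) too, by 0.63 on average. In Wg discs over the pool 7 of 82 were above on all 6 arrays and 9 below, and in wing over leg discs 0 of 79 on either side. A member lies on 1 side on every array more easily where arrays are few. These counts therefore cannot be compared between comparisons with different numbers of arrays.

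The fragments over the pool and TD cells over D(wg) share no sample, and some members lay on opposite sides of the members' median in them. Of the 12 members below the members' median in the fragments, 7 were among the 19 above it in TD cells over D(wg): RpL3, RpL5, RpL19, RpL26, RpLP0, RpS2 and RpS5a. Of the 12 above it in the fragments, 7 were among the 20 below it in TD cells over D(wg), among them RpL36A, RpL37-1, RpS10b, RpS16, RpS23 and RpS26. Only RpL21 was above in both and none was below in both. The 7 are 58.3% of each list of 12, and they are 36.8% of the 19 and 35.0% of the 20. Of all 83 members measured on every array of TD cells over D(wg), 22.9% lay above the members' median on all of them and 24.1% below. The other comparisons over the pool shared some of these positions. On all 6 arrays of Wg discs, RpL3, RpL26, RpLP0 and RpS5a lay below the members' median, but RpL5, RpL19 and RpS2 did not. On all 4 arrays of first leg discs, RpL3 and RpL5 lay below it and RpL36A above. RpL19, RpL26, RpLP0, RpS2, RpS5a, RpL37-1, RpS10b and RpS23 lay on both sides there. The part of the pool in these positions was not tested.

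**Figure D5:**
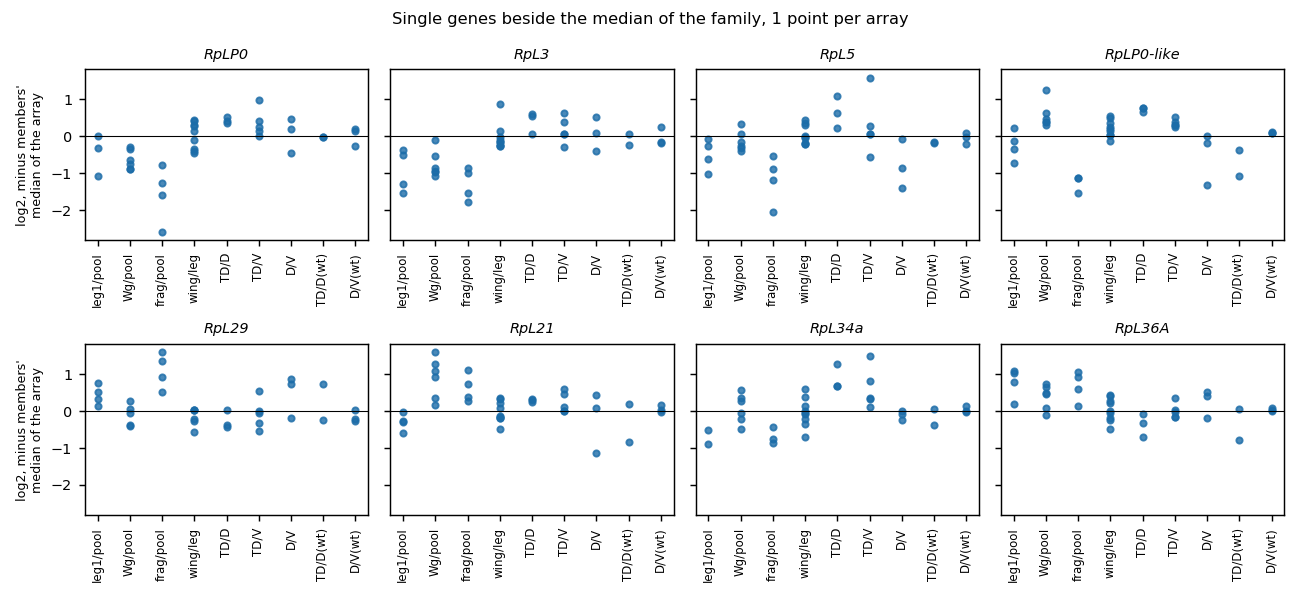
Distance of single genes from the members' median on the same array (log2), for RpLP0, RpL3, RpL5, RpLP0-like, RpL29, RpL21, RpL34a and RpL36A, with 1 point per array and the comparisons along the horizontal axis. RpLP0 and RpL3 lie far below 0 in the fragments over the pool (frag/pool), while RpL29 and RpL36A lie above 0 on all 4 arrays of that comparison.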

How the data were processed

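RNA of dissected or micro-dissected Drosophila discs was amplified through 2 rounds, labelled with Cy3 and Cy5 and read on a GenePix 4000A scanner, per the labels. The deposited log2 ratios put the sample named second in the array's title over the one named first, as the labels' ratio order states; the log base was inferred from the values, and the authors' normalisation and spot filter are not given in the sources used here. Each ratio was turned to first-named over second-named sample and centred on its array's median (deposited medians -0.11 to 0.21). Spot intensities were not used, so signal over background is unknown, and precision rests on how many arrays there were.

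Probes were named by CG number through a RefSeq gene table (Release 6 plus ISO1 MT, names only): 15397 of 16358 gene probes matched 1 gene, 456 several and 505 none. The reference table lists 93 member genes, of which 2 (RpL41 and RpS28-like) had no probe here. The probe with the most values stood for a gene. Per probe, least squares on all 39 arrays gave 1 coefficient per group of arrays and a dye orientation term, and the variance, pooled over all arrays, was moderated with limma 3.58.1 in R 4.3.3 (prior SD 0.28). A probe was tested where at least 66.7% and at least 2 arrays of each group had a value, and called at a Benjamini-Hochberg adjusted p below 0.05 over all probes tested. Contrasts through the pool used the same fit. Simulated data drew noise independently for each probe and array, so shifts shared by the members were not simulated. For first leg discs over the pool, the test recovered 70% of probes changed by 1 on the log2 scale. It recovered 16% of those changed by 0.5, and 4.44% of its calls were unchanged probes. Arrays are numbered in accession order, and the numbers pair nothing.

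The genes named in each comparison are the called members with a value on every array and 1 sign (for contrasts, no overlap), up to 8 a side, a fixed list of members with special roles or paralogs, and the 3 farthest on each side; others named were chosen after their values were seen. Members and lists were chosen with earlier results of these data known. Alternatives were other centring, scaling, filters, probe averaging, no dye term, single slide series and leaving out each array. Some members are counted but not reported or drawn by name here.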

Additional observations from a re-analysis of the deposited data

Results flagged for a closer look

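RpS16 in the regenerating fragments over the pool was 2.47 on array 3, against 0.35 to 0.50 on the other 3 arrays. The gap of array 3 to the nearest other array, as a share of the whole range, passed the critical value of 0.829 for 4 samples. The check was made in 36 groups of values of named genes, and chance passes about 1 group in 20. Array 3 was also the array with the highest members' median in the fragments, 0.49.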

How the results depend on the processing

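Counts are members called. Apart from the turned sign, the share of all genes called under these settings is not given. The counts therefore do not show whether members moved more than other genes. Scaling all arrays to 1 spread gave 28 in first leg discs over the pool, 5 in fragments over the pool (0 higher, 5 lower), 1 in wing over leg discs, 18 in TD over V(wg), 1 in D(wt) over V(wt), and 5, 3 and 1 in Wg minus first leg, fragments minus first leg and Wg minus fragments. A separate fit of each comparison, with no dye term, gave 23 in first leg discs, 3 in fragments (1 higher, 2 lower), 6 in TD over D(wg) (all lower), 0 in TD over V(wg), 6 in TD over D(wt) (all higher, as labelled), and 8, 8 and 3 in the same differences. Without the dye term alone, TD over D(wg) gave 1 and TD over V(wg) 5. Uncentred values gave 24 in fragments (10 higher, 14 lower) and 1 in TD over D(wg). TD over D(wg) gave 2 where values on every array were required, and TD over V(wg) gave 6 with no filter on missing values. Chosen after seeing the data, series 6 alone gave 1 in wing over leg discs and the turned sign with dye orientation kept gave 2 in TD over D(wt).

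Leaving out 1 array gave 10 to 43 in first leg discs, 15 to 30 in fragments, 6 to 10 in Wg discs, 1 to 10 in TD over V(wg), 0 to 1 in D(wg) over V(wg), 2 to 21 in Wg minus first leg, 12 to 22 in fragments minus first leg and 1 to 7 in Wg minus fragments. The other direct comparisons stayed at 0. The balance turned in fragments without array 3 (15) or 4 (19), in TD over V(wg) without array 1 (1) or 4 (1), and in Wg minus fragments without fragment array 1 (7). Among 647 runs of 45 named calls, 508 kept the call, 138 lost it and 1 turned, RpS14a in TD over V(wg) with its probes averaged (0.015, limma adjusted p = 0.97). Ribosome biogenesis genes gave 2 to 14 in TD over D(wg), 4 to 8 in TD over V(wg) and 6 to 13 in fragments on leaving out 1 array. No cause of these moves was tested. No paired analysis was possible because the replicate numbers were given in accession order and the labels carry none.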

Other observations

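Several ribosomal protein genes come in pairs of paralogs, and for many pairs, though not all, the arrays mostly saw 1 copy. RpL10Aa and RpS5b had a value on 3 of 39 arrays, while RpL10Ab and RpS5a had one on all 39. RpL37-2 was measured on 13, RpL22-like on 14, RpS19b and RpS28a on 15 and RpS10a on 25 arrays, and their partners RpL37-1, RpL22, RpS19a, RpS28b and RpS10b on all 39. RpS5b and RpL22-like are best known from the fly germline. Probes of both copies had values widely in other pairs: RpS14a, RpS14b, RpS15Aa and RpS15Ab on all 39 arrays, and RpL34a and RpL34b on 36 and 39. Probes of copies as alike as RpS14a and RpS14b may share RNA. A value there does not show that its own copy was present. Where both copies could be fitted, RpS10a and RpS10b were 0.53 and 0.68 in Wg discs over the pool. RpS15Aa and RpS15Ab were -0.41 and -0.06 in TD cells over D(wg), and -0.33 and -0.39 in TD cells over V(wg). In D(wg) over V(wg) they were 0.05 and -0.34. RpL34a and RpL34b were 0.62 and -0.05 in TD cells over D(wg), and 0.30 and -0.28 in TD cells over V(wg), against -0.55 and -0.46 in the fragments over the pool. The difference between these copies was not tested.

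Ribosomal protein genes are short, with a median span of 1333 bp from start to end of the gene against 2481 bp for all named genes, and 85 of 91 members fell below the median gene. In first leg discs over the pool, genes of short span had higher ratios. Among genes that are no members, those with spans of up to 1396 bp had a median of 0.20 in this comparison, while the 43 members of that size had a median of 0.75. The rank correlation of span with the ratio was -0.33 over members and -0.25 over the other genes in first leg discs, -0.28 and -0.15 in Wg discs, and -0.26 and -0.01 in fragments, as descriptions across genes that share arrays. The part of gene length in the members' ratios was not tested.

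Among genes linked to a shortage of ribosomal proteins, Xrp1, a transcription factor that rises in Minute cells, was called in none of the comparisons. It was 0.06 in Wg discs over the pool and 0.82 in TD cells over D(wg) (limma adjusted p = 0.134). Its partner Irbp18 was called higher in first leg discs over the pool, at 0.72 (limma adjusted p = 0.00458). Ilp8 was 5.70 in Wg discs over the pool (limma adjusted p = 3.51e-05).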
